A study of Mus musculus with 25 samples.

Results

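Crosslink events of SRSF7 were described along 3 long mouse transcripts, Kcnq3, Efna5 and Samd4. They were chosen by their measured difference in crosslink events between a zinc-knuckle mutant of SRSF7, labelled mutZn, and the unchanged protein. Their 3 regions held 167 same-strand windows of 5 kb, of 505035 windows with an event in the whole series. In the mm9 build the regions are chr15:65815001-66125000 on the minus strand for Kcnq3 (310 kb), chr17:62950001-63240000 on the minus strand for Efna5 (290 kb) and chr14:47495001-47730000 on the plus strand for Samd4 (235 kb). Positions are given below as the distance from the 5′ end of the region. No mm9 annotation was used here, so no event is assigned to an exon or an intron. RefSeq lists the genes as Kcnq3 (gene ID 110862), Efna5 (13640) and Samd4 (74480). Signal, taken as bins of 500 nt with at least 5 events over the 7 UV anti-GFP libraries, reached from 6.5 to 307.5 kb in Kcnq3, a span of 301 kb against a RefSeq gene length of 300.263 kb in build GRCm38.p6. The corresponding span was 281.5 kb in Efna5 against 278.361 kb, and 227.5 kb in Samd4 against 222.853 kb.

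The assay was iCLIP, and the cells were P19, an embryonal carcinoma line of the mouse. UV light links a protein to RNA it touches, the protein is pulled down, and each cDNA that ends at a crosslink counts as 1 event. All anti-GFP libraries came from cells carrying a GFP-tagged SRSF7 protein and were pulled down with anti-EGFP. The protein was the unchanged SRSF7 (WT, replicates 2, 3 and 4), mutZn (replicates 3 and 4) or the variant D27aa (replicates 1 and 2), and each protein had 1 library made without UV. Anti-SRSF7 pulldowns gave GFP_OE, endo_OE and RRM_OE products from the cells overexpressing SRSF7-GFP (2 libraries each) and endo_WT from unmodified cells (1), beside a no-UV and a no-antibody control (1 library each). For piCLIP, libraries were made from monosomal and polysomal fractions of the SRSF7-GFP overexpressing cells, with 2 immunoprecipitates and 1 library titled IgG in each fraction. How the tagged proteins were expressed, and whether a line was 1 clone, is not given in the sources used here. "WT" names the tagged unchanged protein in the anti-GFP libraries, and the unmodified cells only in endo_WT.

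SRSF7 is a serine/arginine-rich splicing factor. It holds RNA with an RNA recognition motif and a neighbouring zinc knuckle, and its serine/arginine-rich domain contacts other splicing factors. Such proteins meet RNA while it is being transcribed, so crosslinks in long genes can lie anywhere in the unspliced transcript. Kcnq3 encodes a subunit of the voltage-gated potassium channel that carries the M current of neurons. Efna5 encodes ephrin-A5, a membrane-anchored ligand of Eph receptors in axon guidance. Samd4 encodes a Smaug-type protein that binds RNA hairpins with its sterile alpha motif and represses translation.

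The sequences just upstream of the annotated starts are shown because the profiles below are counted from the 5′ end and RefSeq lists 2 starts for Samd4. They are the 250 bases before the start in RefSeq, build GRCm38.p6, with CG dinucleotides in capitals.
Efna5, chr17:62881318-62881567, minus strand: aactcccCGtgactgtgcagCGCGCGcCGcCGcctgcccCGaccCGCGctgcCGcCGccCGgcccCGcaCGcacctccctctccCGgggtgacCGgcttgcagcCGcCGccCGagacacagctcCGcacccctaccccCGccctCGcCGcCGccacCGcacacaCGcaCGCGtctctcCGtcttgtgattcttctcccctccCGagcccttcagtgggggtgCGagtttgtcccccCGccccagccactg
Samd4, start 1, chr14:46882715-46882964, plus strand: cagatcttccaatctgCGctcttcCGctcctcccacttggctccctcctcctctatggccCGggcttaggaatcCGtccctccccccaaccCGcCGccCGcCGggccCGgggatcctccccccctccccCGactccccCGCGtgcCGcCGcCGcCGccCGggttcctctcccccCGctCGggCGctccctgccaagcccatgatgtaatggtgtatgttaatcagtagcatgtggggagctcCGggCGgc
Samd4, start 2, chr14:47068727-47068976, plus strand: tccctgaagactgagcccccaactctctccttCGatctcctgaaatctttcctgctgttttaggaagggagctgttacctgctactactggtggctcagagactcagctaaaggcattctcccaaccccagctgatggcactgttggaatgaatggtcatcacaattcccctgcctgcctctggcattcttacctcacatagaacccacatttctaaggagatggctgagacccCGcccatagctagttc
The Efna5 sequence held 32 CG, a number reached by 4.58% of 32851 RefSeq promoters cut to the same length. The first Samd4 start held 22 CG (reached by 14.8%) and the second, 186.012 kb downstream, held 2 (reached by 81.2%). CG reads the same on both strands. These coordinates are in another build than the crosslink files and were not carried over to mm9. Kcnq3 had no entry in this table.

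Depth ranged from 221521 to 11774078 events in the 7 UV anti-GFP libraries, from 34916 to 88997 without UV, and from 1153 to 471340 in the other libraries. Levels are events per 1e+06 events of the library (CPM), over the placed chromosomes. The 3 transcripts held 96 to 17868 events each in the 7 UV libraries, and mutZn was by far the deepest group. WT 3 and WT 4 came from the same sequencing run and carry the same replicate number in their file headers, so whether they are separate cultures is not settled. The p-values below then measure only the spread between these libraries. The D27aa library without UV shared 18 of its 94 crosslinked positions in the 3 transcripts with WT 4 (19.1%), against 5.59% for positions 1 or 2 nt away, so its values are not a settled background.

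Kcnq3 had more crosslink events with the mutant protein. Its level was 433 CPM in WT 2, 433 in WT 3 and 479 in WT 4, and 1518 and 1550 CPM in mutZn 3 and 4. Every mutZn library lay above every WT library. The means were 1534 ± 23.2 CPM in mutZn (SD, n = 2) and 449 ± 26.5 in WT (n = 3), a ratio of 3.42. D27aa lay between them, with 770 and 896 CPM.

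Efna5 went the other way. Its level was 605 CPM in WT 2, 1345 in WT 3 and 1312 in WT 4, and 527 and 515 CPM in mutZn 3 and 4. WT 2 stood apart from the other WT libraries and came close to mutZn without overlap. The means were 521 ± 8.65 CPM in mutZn (n = 2) and 1087 ± 418 in WT (n = 3), a ratio of 0.479. Without WT 2 the log2 ratio was -1.35 in place of -1.06. D27aa was lower still, with 324 and 389 CPM.

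Samd4 was also lower with the mutant. It held 998, 979 and 924 CPM in WT 2, 3 and 4, and 555 and 559 CPM in mutZn 3 and 4. The replicates of each group were close together and the groups did not overlap. The means were 557 ± 2.74 CPM in mutZn (n = 2) and 967 ± 38.4 in WT (n = 3), a ratio of 0.576. D27aa held 486 and 479 CPM. These differences between mutZn and WT chose the transcripts, so they are given as a description with no test. RNA amounts were not among the values used here, so more RNA and more crosslinks per RNA cannot be told apart.

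**Figure D1:**
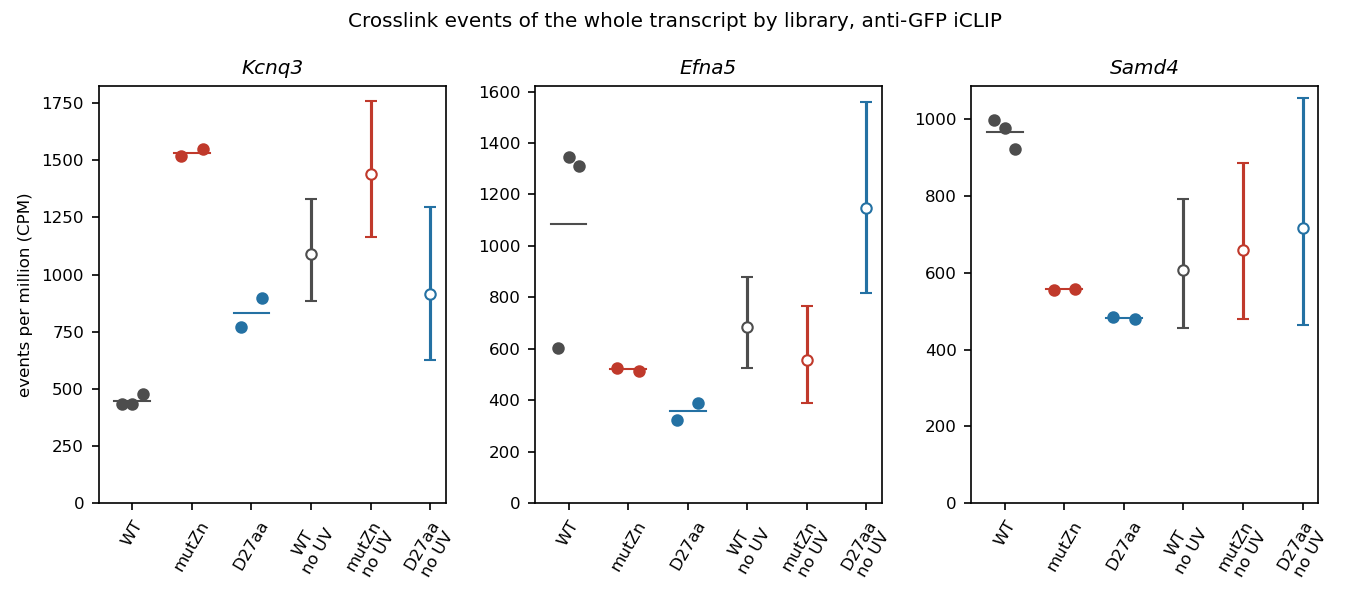
Crosslink events per 1e+06 events of the library (CPM) on the transcript strand of Kcnq3, Efna5 and Samd4 in each anti-GFP library; filled points are UV libraries with their group mean as a line, and open points are the single libraries without UV with 95% exact Poisson intervals. Kcnq3 is highest in mutZn (1518 and 1550 CPM), while Efna5 and Samd4 are highest in the UV WT libraries except Efna5 in WT 2 (605 CPM).

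Few events lay on the same strand outside the transcripts. The same strand held 0.557 ± 0.488 CPM in WT (SD, n = 3) and 0.410 ± 0.140 in mutZn (n = 2) in the 100 kb before the 5′ end of Kcnq3. In the 100 kb after its 3′ end it held 13.2 ± 3.66 and 9.96 ± 0.639 CPM, a ratio of 0.756 against 3.42 within the transcript. Before Efna5 the flank held 2.15 ± 2.05 CPM in WT and 1.20 ± 0.499 in mutZn, and after it 3.04 ± 2.63 and 1.38 ± 0.0285, ratios of 0.560 and 0.454 beside 0.479 within the transcript. Before Samd4 they held 22.8 ± 7.65 CPM in WT and 19.9 ± 0.211 in mutZn, a ratio of 0.874, and after it 1.11 ± 0.976 and 2.07 ± 0.0722 CPM, a ratio of 1.86. The higher level of Kcnq3 in mutZn was thus not seen in its flanks, while both flanks of Efna5 had ratios near that of the transcript. Only the flanks after Kcnq3 and before Samd4 held more than a few CPM.

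Within Kcnq3 the whole transcript was higher in mutZn. The ratio of mutZn to WT was 2.81 in the first 50 kb, 3.28 and 3.62 in the next 50 kb segments, and 5.21, 5.99 and 3.52 in the last 3. In all 6 segments both mutZn libraries lay above the 3 WT libraries. How often segments of 50 kb elsewhere in the genome did not overlap was not measured, here or for the transcripts below. The segment from 200 to 250 kb, with the highest ratio, was also the emptiest, with 9.03, 10.0 and 14.9 CPM in WT 2, 3 and 4 and 66.8 and 69.0 CPM in mutZn. All 47 bins of 5 kb with a mean of at least 20 events had a ratio above 1, from 2.04 to 24.5 (median 3.40). The lowest was at 65 to 70 kb, with 22.6, 11.8 and 14.2 CPM in WT and 32.9 and 33.3 in mutZn. The next lowest, at 15 to 20 kb, had a ratio of 2.14. The highest was at 240 to 245 kb, where WT had 4 events in all, all of them in WT 4, and mutZn 9.09 and 7.46 CPM. The next, at 175 to 180 kb, had a ratio of 10.1 with 13 WT events. The 2 extreme ratios thus stand on few WT events.

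Within Efna5 the whole transcript was lower in mutZn. The 6 segment ratios stayed between 0.407 and 0.534, the narrowest range of the 3 transcripts on the log scale. In 4 of the 6 segments all mutZn libraries lay below all WT libraries. In the segments from 0 to 50 and from 100 to 150 kb WT 2 overlapped mutZn: it held 122 CPM from 0 to 50 kb, beside 151 and 140 CPM in mutZn. All 45 bins with a mean of at least 20 events had a ratio below 1 (0.286 to 0.796, median 0.472). The ratio was lowest at 275 to 280 kb (36.1, 7.28 and 12.4 CPM in WT; 5.35 and 5.29 in mutZn), where WT 2 alone was high. The bin at 60 to 65 kb was next, with 36.1, 41.9 and 45.1 CPM in WT and 13.7 and 13.7 in mutZn, and there all 3 WT libraries were high. The bins at 150 to 155 kb (0.796) and at 5 to 10 kb (0.742) had the highest ratios, and in both WT 2 was below mutZn.

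In Samd4 the difference was larger toward the 5′ end. The segment ratios were 0.484, 0.543, 0.681, 0.567 and 0.839 from the 5′ to the 3′ end, and in all 5 segments the mutZn libraries lay below the WT libraries. From 200 to 235 kb the gap was small, with 104, 105 and 88.6 CPM in WT and 80.7 and 85.5 in mutZn. Of 38 bins with a mean of at least 20 events, 37 had a ratio below 1 and 1 was above (0.344 to 1.11, median 0.527). The lowest ratios were at 100 to 105 kb (0.344) and at 180 to 185 kb (0.364). The highest was at 110 to 115 kb (1.11), where WT 2 had no event and WT 3 and WT 4 held 19.1 and 18.7 CPM, above the 13.7 and 14.5 CPM of mutZn. At 90 to 95 kb (0.952) the groups overlapped. At 215 to 220 kb mutZn, with 29.6 and 33.1 CPM, came near the 31.6, 32.8 and 35.2 CPM of WT.

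**Figure D2:**
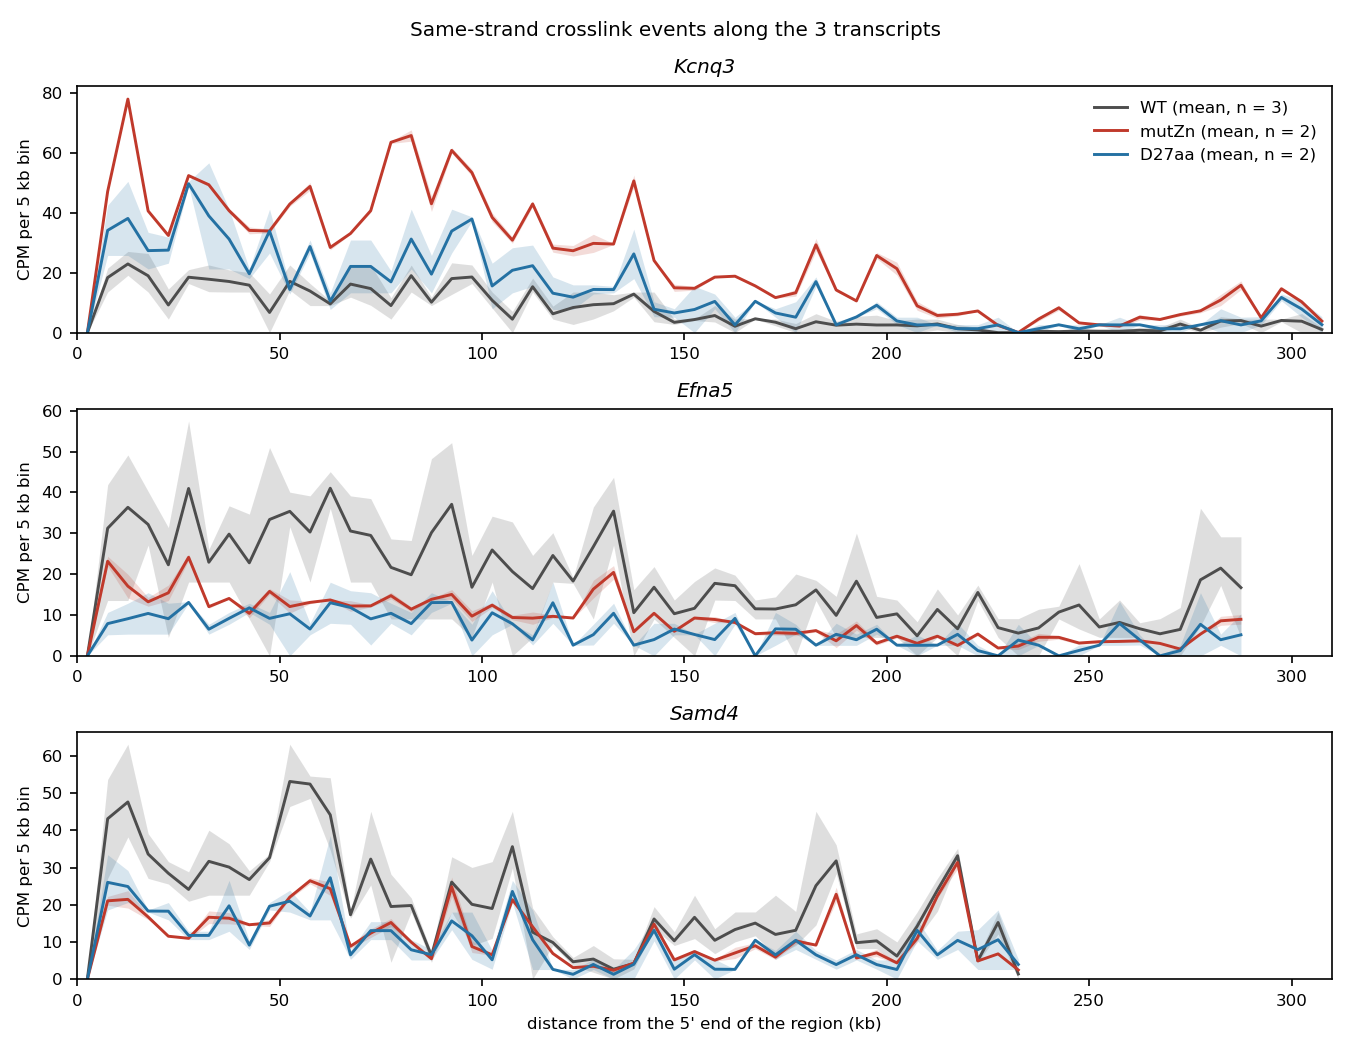
Mean CPM in 5 kb bins against distance from the 5′ end of the region in kb, for WT (n = 3), mutZn (n = 2) and D27aa (n = 2), with the range over libraries as shading. In Kcnq3 the mutZn line runs above WT along the transcript, in Efna5 below it, and in Samd4 below it near the 5′ end and close to it at 210 to 220 kb.

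Each region was also cut at its midpoint into a 5′ and a 3′ part, and the 5′ part held most events of all 3 transcripts in all 7 UV libraries. The 5′ part of Kcnq3 held 88.5, 84.9 and 83.3% of its events in WT 2, 3 and 4, and 79.4 and 79.7% in mutZn. Its log2 ratio of mutZn to WT was therefore lower in the 5′ part than in the 3′ part, by a difference of -0.60. In Efna5 the 5′ part held 64.2, 70.5 and 71.8% in WT and 72.0 and 72.5% in mutZn, a difference of 0.17, the smallest of the 3. In Samd4 it held 64.7, 70.5 and 71.1% in WT and 63.4 and 61.3% in mutZn, a difference of -0.40. The ranges of the groups did not overlap in any transcript, although for Efna5 WT 4 and mutZn 3 nearly met. The mean of mutZn thus stayed on the same side of WT in every segment of each transcript, with an uneven size in Kcnq3 and Samd4.

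Evenness was also measured as a chi-square per degree of freedom over the 5 kb bins of 2 libraries, which is near 1 when both share a profile. Between WT 3 and WT 4 it was 1.20 in Kcnq3, 1.07 in Efna5 and 0.825 in Samd4. Between mutZn 3 and mutZn 4 it was 0.879, 1.39 and 1.17. Between WT 3 and mutZn 4 it was 2.39, 1.59 and 2.04, above the replicate pairs given here. Between the deeper WT 4 and mutZn 4 it was 2.35, 2.10 and 3.55. For WT 3 and mutZn 4, 767 tiles of 200 kb elsewhere in the genome had a median of 1.57 (5th to 95th percentile 0.794 to 4.26). The values of the 3 transcripts for that pair lay within this range, and tiles were not measured for WT 4 against mutZn.

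**Figure D3:**
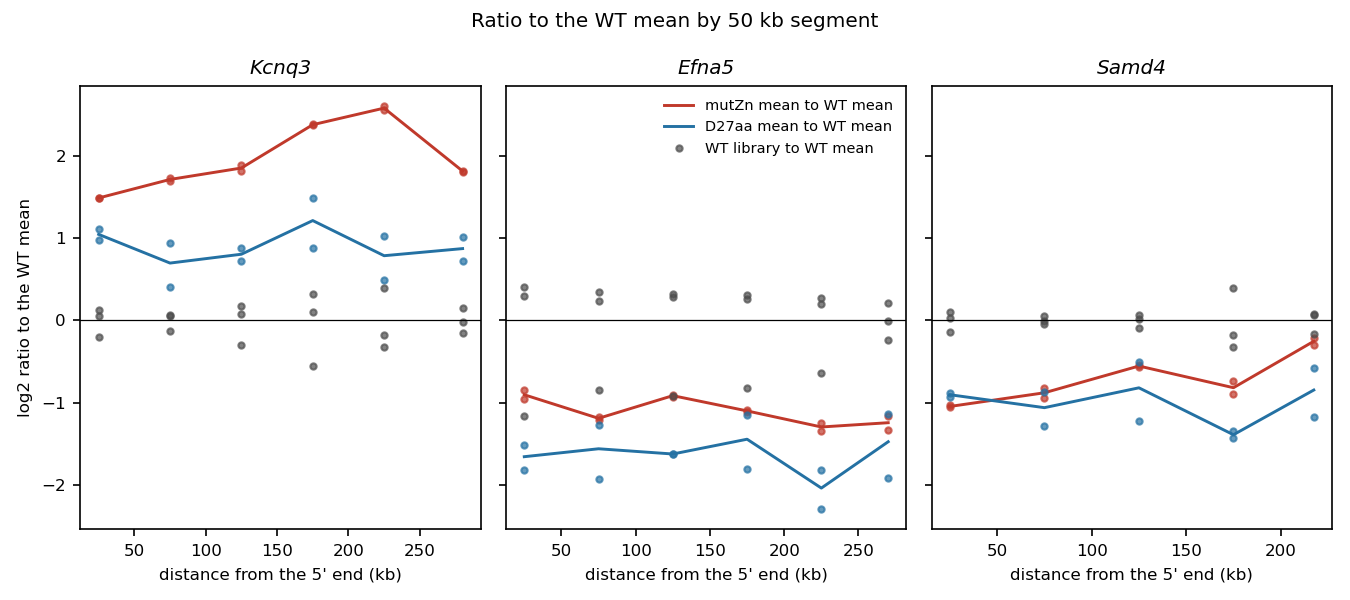
Log2 ratio to the WT mean in 50 kb segments (the last of each transcript is 35 to 60 kb long), placed at the segment's centre in kb from the 5′ end; points are libraries and lines are the group means. The mutZn line stays above 0 in Kcnq3 (ratios 2.81 to 5.99) and below 0 in Efna5 and Samd4, and in Samd4 it approaches 0 in the last segment (ratio 0.839).

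In the genome-wide test of 5 kb windows, a negative binomial quasi-likelihood fit with limma moderation, 9.73% of 36173 windows were called higher and 8.8% lower in mutZn at an adjusted p of at most 0.05 (18.5% in either direction). Since this contrast chose the transcripts, nothing is read from their counts. All 43 tested bins of Kcnq3 were called higher, all 49 of Efna5 lower and 23 of 36 of Samd4 lower, while 19, 9 and 11 bins did not pass the filter on low values. Some tested bins passed it only through the group where they were high. Efna5 at 240 to 245 kb (WT) and Kcnq3 at 200 to 205 kb (mutZn) are examples. The longest unbroken runs of called bins went from 5 to 205 kb in Kcnq3 (40 bins), from 5 to 205 kb in Efna5 (40) and from 5 to 85 kb in Samd4 (16). Both mutZn libraries lay above all WT libraries in 43 tested bins of Kcnq3, beside 21.7% of windows genome-wide, and below them in 23 bins of Efna5 and 27 of Samd4, beside 15.2%. Of the called bins of Samd4, 19 were among the 23 bins of the 5′ part and 4 among the 24 of the 3′ part, with untested bins included. The 3′ part held fewer events, so the lower number there does not show a change confined to the 5′ part. Without WT 4 the count was 16 of 27 in Efna5 and 13 of 29 in Samd4. At that setting 6.16% of windows genome-wide were called in either direction, beside 18.5% in the main test. Without a filter on low windows Samd4 had 15 calls, and 1.45% of windows genome-wide were called. The lower counts at these settings thus came with a lower share genome-wide. Leaving out either mutZn library leaves a single library in that group, so no count is given here. No call in the opposite direction appeared under any setting tried.

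D27aa differed from WT in the same direction as mutZn in each transcript, but these comparisons share their WT libraries and are not independent. Kcnq3 held 833 ± 88.9 CPM in D27aa (SD, n = 2), 1.86 times WT. Efna5 held 356 ± 45.8 CPM, 0.328 of WT, and Samd4 482 ± 5.05 CPM, 0.499 of WT. In all 3 the D27aa libraries lay outside the range of the WT libraries. The exact two-sided permutation p was 0.2 for each, the smallest that 2 libraries against 3 can give. In Efna5 the value depended on WT 2: its log2 ratio was -0.90 within run 5, which holds WT 2 and D27aa 1, and -1.77 within run 6.

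Along the transcripts D27aa stayed on the same side of WT in every segment. Segment ratios of D27aa to WT were 1.62 to 2.32 in Kcnq3, 0.243 to 0.367 in Efna5 and 0.381 to 0.567 in Samd4. In no segment did the libraries overlap, and the share of such segments elsewhere in the genome was not measured. The gap was narrow in Kcnq3 from 200 to 250 kb, where D27aa held 15.9 and 23.2 CPM on 6 and 9 events. WT 4 held 14.9 CPM there. The log2 ratio of the 5′ part minus that of the 3′ part was -0.18 in Kcnq3, -0.07 in Efna5 and 0.12 in Samd4 (exact permutation p 0.6, 1 and 0.8, libraries overlapping). A p that misses the threshold with 2 libraries against 3 does not show an even change.

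Few single bins were called between D27aa and WT. Over the genome 1.28% of windows were called higher and 0.849% lower in D27aa (2.13% in either direction). Both D27aa libraries lay above all WT libraries in 19 tested bins of Kcnq3, beside 12.2% of windows, and below them in 26 bins of Efna5 and 26 of Samd4, beside 17.1%. In Kcnq3 5 of 43 tested bins rose, at 20 to 35 kb (3 bins), 45 to 50 kb and 95 to 100 kb. The clearest, at 25 to 30 kb, held 18.1, 16.4 and 21.0 CPM in WT and 50.5 and 48.9 in D27aa (adjusted p = 0.00549, quasi-likelihood test with limma). In Efna5 14 of 49 tested bins fell and in Samd4 3 of 36. The called Efna5 bin at 165 to 170 kb had 0 events in both D27aa libraries. It passed the filter through WT alone (11.8 and 13.7 CPM in WT 3 and WT 4), so nothing is read from its call. The Samd4 bins lay at 55 to 60, 185 to 190 and 215 to 220 kb, all named after their values were seen. These counts changed when single libraries were left out and with the tool, and so did the share of windows called genome-wide. That share was 2.13% with all libraries, 1.77% without WT 2, 1.13% without WT 3 and 1.02% without WT 4. It was lower still without D27aa 1 or D27aa 2, where 1 library was left in the group. Genome-wide, limma-voom called 1028 windows higher and 133 lower, beside 464 and 307 in the main test. Kcnq3 had 4 calls without WT 2, 2 without WT 3, WT 4, mutZn 3 or mutZn 4, 1 without D27aa 1 and 0 without D27aa 2 (8 bins at an unadjusted p under 0.05). Efna5 had 28 without WT 2, 5 without mutZn 4, 3 without D27aa 2, and 0 without WT 4 or D27aa 1 (21 and 35 bins at an unadjusted p under 0.05). Samd4 had 6 without WT 2, 1 without WT 4 or mutZn 4, and 0 without either D27aa library (12 bins each at an unadjusted p under 0.05). With limma-voom the counts were 6, 0 and 0, where 19, 23 and 7 bins had an unadjusted p under 0.05.

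One bin of Samd4 was called between the variants. At 185 to 190 kb the levels were 36.1, 31.0 and 28.4 CPM in WT, 20.9 and 24.7 in mutZn, and 2.66 and 5.15 in D27aa. The bin was higher in mutZn than in D27aa (log2 fold change 2.40, adjusted p = 0.0260, quasi-likelihood test with limma), and the D27aa values stood on 1 and 2 events. It was not called between mutZn and WT. At 215 to 220 kb D27aa held 7.97 and 12.9 CPM, and the bin was not called between mutZn and D27aa (adjusted p = 0.0719, same test). In Kcnq3 3 bins, at 50 to 55, 75 to 80 and 160 to 165 kb, were called higher in mutZn than in D27aa, beside 0.733% of windows genome-wide (1.52% were lower and 2.25% called in either direction). The mutZn libraries are those that chose the transcripts, so these calls are not independent of that choice. The bin at 75 to 80 kb held 63.1 and 63.9 CPM in mutZn, 13.3 and 20.6 in D27aa and 4.51, 10.9 and 11.6 in WT. The bin at 50 to 55 kb had 6 and 5 D27aa events. The bin at 160 to 165 kb had 0 and 2 (adjusted p = 0.0460, quasi-likelihood test with limma) and passed the filter through mutZn alone. Over whole transcripts the ratio of mutZn to D27aa was 1.84 in Kcnq3, 1.46 in Efna5 and 1.15 in Samd4. No Efna5 bin was called in this comparison by the quasi-likelihood test or by limma-voom, where 5 and 0 of 49 bins had an unadjusted p under 0.05. The Samd4 bin was lost with limma-voom and without mutZn 4, D27aa 1 or D27aa 2. The Kcnq3 count was 6 without WT 2, 1 without mutZn 3, mutZn 4 or D27aa 2, and 0 without D27aa 1 (14 bins at an unadjusted p under 0.05).

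Summed over the UV anti-GFP libraries, events were spread over many 500 nt bins of each transcript, with no single bin holding most of them. How this compares with other transcripts, or within WT alone, was not measured. The fullest 500 nt bin held 1.51% of the events of Kcnq3, 1.06% of Efna5 and 2.56% of Samd4, with the events of the 7 UV anti-GFP libraries summed, most of them from mutZn. The fullest 62 of 620 bins held 32.7% in Kcnq3, the fullest 58 of 580 held 27.6% in Efna5 and the fullest 47 of 470 held 31.4% in Samd4. In Kcnq3 the fullest bins were adjacent, chr15:66042001-66042500 and chr15:66041501-66042000 in mm9, 82.5 to 83.5 kb from the 5′ end. The first of them held 4.51, 7.28 and 8.61 CPM in WT and 22.5 and 23.5 in mutZn. The second held 0, 6.37 and 6.33 CPM in WT and 21.1 and 20.5 in mutZn, so mutZn was above WT in both bins. In Efna5 the fullest bins lay at chr17:63109001-63109500 and chr17:63231501-63232000, 130.5 and 8 kb from the 5′ end, with ratios of 0.718 and 0.683. WT 2 had 0 events in the first and 2 in the second. In Samd4 they were again adjacent, chr14:47504001-47504500 and chr14:47504501-47505000, 9 to 10 kb from the 5′ end and within the first 3 kb of its signal. The first held 22.6, 38.2 and 31.6 CPM in WT and 11.5 and 12.4 in mutZn (ratio 0.388), and the second had a ratio of 0.678. The genome sequence at these sites is not printed because no mm9 genome was used here.

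The authors' deposited peak lists were made from the same libraries, with scores summed over replicates. Kcnq3 held 1080 peak nucleotides in the WT list and 7874 in the mutZn list, that is 0.528 and 3.51 per 1000 peaks of each list. Efna5 held 4147 and 1247 (2.03 and 0.555 per 1000), and Samd4 2382 and 1466 (1.16 and 0.653 per 1000). The lists differ in the depth behind them, and the header of the WT list names more source libraries than were used here. Of the Kcnq3 peaks 395 nucleotides were in both lists, 36.6% of the WT and 5.02% of the mutZn peaks. In Efna5 318 were shared, 7.67% and 25.5%, and in Samd4 314, 13.2% and 21.4%. The share of nucleotides in both lists over the whole lists was not measured, so these shares are not read as a trait of the transcripts. The 5′ part held 99.0% of the WT and 92.3% of the mutZn peaks of Kcnq3, 89.1% and 90.2% in Efna5, and 91.7% and 71.5% in Samd4. The shallow D27aa list held 13, 0 and 13 peaks in Kcnq3, Efna5 and Samd4.

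Without UV the 3 transcripts were also covered. In Kcnq3 the level was 1090 CPM for WT (97 events), 1440 for mutZn (96) and 916 for D27aa (32). The WT value without UV lay above all 3 UV WT libraries. In Efna5 the levels were 685, 555 and 1146 CPM, and in Samd4 607, 660 and 716 CPM. The ratio of mutZn to WT without UV was 1.32 in Kcnq3 (95% interval 0.986 to 1.77), 0.810 in Efna5 (0.523 to 1.24) and 1.09 in Samd4 (0.714 to 1.65). Intervals are exact and cover counting error only, and all 3 hold 1. The difference between UV and no UV was not tested, since there was 1 library without UV per protein. The WT and mutZn libraries without UV were sequenced in run 4 with mutZn 3, and the D27aa library without UV in run 6 with WT 4. Of 210 positions of the WT library without UV in these transcripts, 25 were shared with mutZn 3 (11.9%), as many as 1 or 2 nt away (11.9%). With mutZn 4 the share was 10.0% against 6.43% nearby, and with WT 4 5.24% against 3.10%. The part of this background in the levels with UV was not tested.

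The anti-SRSF7 libraries gave levels from other cells and another antibody. In Kcnq3 the order was endo_WT with 639 CPM (95% exact Poisson interval 536 to 756), RRM_OE with 451 and 372, GFP_OE with 308 and 405, and endo_OE with 329 and 263. The endo_WT library of unmodified cells thus lay above the 6 libraries of overexpressing cells, but the intervals of RRM_OE 3, RRM_OE 4 and endo_OE 4 reached into its own. In Efna5 endo_WT was the lowest of the 7, with 473 CPM (385 to 575). GFP_OE held 813 and 1171, RRM_OE 1071 and 885, and endo_OE 628 and 658 CPM. Again the interval of endo_OE 4 (389 to 960), of 21 events, overlapped that of endo_WT, as did that of endo_OE 5 (496 to 857). In Samd4 endo_WT held 691 CPM, inside the range of the other 6 (338 to 885). With 1 endo_WT library there is no replicate check and no test.

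**Figure D4:**
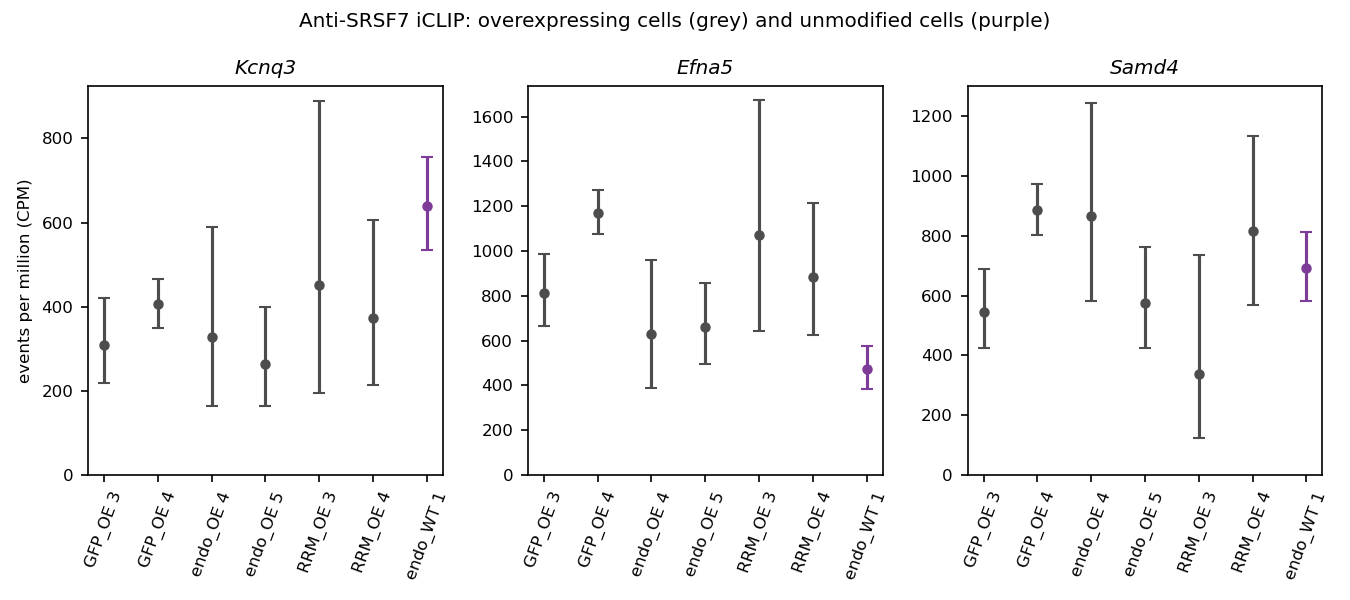
CPM of Kcnq3, Efna5 and Samd4 in the 7 UV anti-SRSF7 libraries with 95% exact Poisson intervals, which cover counting error only. The library of unmodified cells is the highest in Kcnq3 (639 CPM), the lowest in Efna5 (473 CPM) and within the others in Samd4 (691 CPM).

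The ribosome fractions and the controls had too few events for a profile. The piCLIP immunoprecipitates held 2 to 11 events per transcript, with levels of 38.2 to 125 CPM in the monosomal and 109 to 477 CPM in the polysomal fraction. In Kcnq3 both monosomal libraries had their 2 events at 1 position, and polysomal library 2 had its 4 events at 1 position. The libraries titled IgG held 0 events except 1 in Efna5 in the polysomal fraction. A count of 0 there allows up to 2602 CPM (monosomal) and 269 CPM (polysomal), counted as 3 events. The anti-SRSF7 libraries without UV and without antibody held 0 to 3 events per transcript.

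Against the rest of the genome, the ratio of mutZn to WT in 879 tiles of 200 kb outside the 3 transcripts had a median of 1.0 (5th to 95th percentile 0.681 to 1.33). Of the 879, 1 tile reached the Kcnq3 ratio, 21 were at or below Efna5 and 27 at or below Samd4, as a description of how the transcripts were picked. The ratio of D27aa to WT in the same tiles had a median of 0.923 (5th to 95th percentile 0.682 to 1.27). It was 1.86 in Kcnq3, 0.328 in Efna5 and 0.499 in Samd4. The tiles most like each transcript over the 7 libraries were found by Pearson's r of log2(CPM + 1), and these points share library and depth. For Kcnq3 they were chr13:35800001-36000000 on the plus strand (r = 0.983), chr6:122200001-122400000 on the minus strand (0.977) and chr7:52000001-52200000 on the minus strand (0.961). The second had 465, 485 and 541 CPM in WT, 1295 and 1251 in mutZn and 927 and 996 in D27aa, the same order of groups as Kcnq3. The ratios of mutZn to WT in the 3 tiles were 1.34, 2.56 and 1.41, below that of Kcnq3. For Efna5 they were chr6:4600001-4800000 and chr6:67200001-67400000 on the plus strand (0.987 and 0.985) and chr2:34000001-34200000 on the minus strand (0.976). Their ratios of mutZn to WT were 0.515, 0.794 and 0.765. In all 3 of these WT 2 was the lowest WT library, but they were picked by their likeness to Efna5 over these same libraries. For Samd4 they were chr19:60800001-61000000 and chr1:88200001-88400000 on the minus strand (0.996 and 0.995) and chr14:35400001-35600000 on the plus strand (0.978), with ratios of 0.734, 0.574 and 0.616.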

How the data were processed

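The deposited library files give 1 score for each crosslinked nucleotide, a whole number of cDNAs whose sign marks the strand on mm9, per the file headers. The authors used CASAVA 1.4, per the submitters' processing notes, and no source used here names the aligner or the removal of duplicates. Replicate numbers come from the titles. Absolute scores were summed per strand in bins of 500 nt and 5 kb and scaled per 1e+06 placed events. Windows of 5 kb were fitted over the genome with a negative binomial model written for these sums (trimmed-mean scaling, 30% of ratios and 5% of levels trimmed) in Python 3.11.15. Quasi-likelihood F tests used limma 3.58.1 in R 4.3.3 with Benjamini-Hochberg adjustment, and all adjusted p-values come from it. Windows were tested at the CPM of 10 events in the median library in at least 2 libraries of any group and 15 events in total. The test was tested on simulated data. The named bins were, by rule, the 2 fullest 500 nt bins and, of 5 kb bins with a mean of at least 20 events, the 2 highest and 2 lowest ratios, plus the 3 most alike tiles. All other bins were named after their values were seen. The transcripts, bins and lists were chosen with earlier results of these data known. Alternatives were each position counted once, other scaling, filter, window size and tool, single runs, a replicate block and leaving out each library. The replicate numbers were not taken as pairs: over 36173 windows the deviations of WT and mutZn libraries with the same number correlated at -0.0153.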

Additional observations from a re-analysis of the deposited data

Results flagged for a closer look

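Without UV, 4 ratios of a variant to WT lay on the other side of 1 from the ratio with UV, each from 1 library per protein, and the difference between UV and no UV was not tested. For D27aa the ratio without UV was 0.841 in Kcnq3 (95% exact interval 0.545 to 1.27) against 1.86 with UV. In Efna5 it was 1.67 (1.09 to 2.53) against 0.328, and in Samd4 1.18 (0.704 to 1.93) against 0.499. For mutZn it was 1.09 in Samd4 (0.714 to 1.65) against 0.576. The D27aa library without UV shared 19.1% of its positions in these transcripts with WT 4. The share was highest in Efna5, with 11 of 37 positions (29.7%) against 6.08% nearby. It was 4 of 32 positions in Kcnq3 and 3 of 25 in Samd4. This library was sequenced in run 6 with WT 4, and the WT library without UV in run 4. Each D27aa ratio without UV thus compares libraries of different runs. The part of the shared positions and of the runs in the values was not tested. No group had 4 to 10 libraries, so single libraries were not tested as outliers.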

How the results depend on the processing

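The ratios and the 5′ minus 3′ differences of mutZn against WT kept their direction under every alternative tried: leaving out 1 library at a time gave log2 ratios of 1.75 to 1.82 (Kcnq3), -1.35 to -0.88 (Efna5) and -0.83 to -0.77 (Samd4), and 5′ minus 3′ differences of -0.75 to -0.44, 0.08 to 0.25 and -0.55 to -0.33. With the replicate block (WT 3 and 4 with mutZn 3 and 4) the log2 ratios were 1.75, -1.35 and -0.77 and the bins called 53, 57 and 24. This fit tested more windows, and no call changed direction. The log2 ratios of D27aa to WT ranged over 0.78 to 0.998, -1.90 to -1.43 and -1.03 to -0.98 when 1 library was left out. The 5′ minus 3′ differences of D27aa did not keep their sign: within run 6 they were 0.016 (Kcnq3) and 0.027 (Efna5), within run 5 0.088 (Efna5), an alternative chosen after seeing the data, and between the end parts of a cut into 3 they were 0.0011 (Kcnq3) and 0.072 (Efna5). Leaving out 1 library gave -0.33 to -0.022, -0.28 to 0.12 (0.017 without WT 4) and -0.13 to 0.39 (-0.026 without WT 2). The counts of called bins are given next for leaving out 1 WT library, since leaving out other libraries leaves 1 library in a group. Calls of mutZn against WT then ranged over 35 to 53, 16 to 57 and 13 to 25, beside 43, 49 and 23 in the main test. Kcnq3 had 55 with no filter, and Samd4 had 15 with no filter and 28 with limma-voom. Calls of D27aa against WT ranged over 2 to 4, 0 to 28 and 1 to 6 without 1 WT library, beside 5, 14 and 3 in the main test. For Kcnq3 they were 0 with no filter, 3 with each position counted once or with library totals only, and 2 of 27 windows of 10 kb. For 10 kb windows they were 19 of 29 in Efna5 and 3 of 22 in Samd4, and with limma-voom 0 in both. Calls of mutZn above D27aa in Kcnq3 ranged over 3 to 6 without 1 WT library, with 7 with no filter and 6 with library totals only. In Efna5 no bin was called between mutZn and D27aa under any setting, and the Samd4 calls of mutZn above D27aa ranged over 0 to 2. The cause of these moves was not tested, except that settings without a library also change which windows are tested. The share of windows called genome-wide moved as well. For mutZn against WT it was 18.5% in the main test, 6.16% without WT 4 and 1.45% with no filter. For D27aa against WT it was 2.13%, 1.02% and 0.173%, and for mutZn against D27aa 2.25%, 3.11% and 0.288%. Depth limits single bins: per transcript WT 2 held as few as 96 events and D27aa 1 as few as 122.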
